A study of Mus musculus with 4 samples.

Results

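Dopamine and histamine neurons of the hypothalamus were examined through 10 genes: the enzymes Th, Ddc and Hdc, the transporters Slc18a2 and Slc6a3, the dopamine receptors Drd1 and Drd2, and the histamine receptors Hrh1, Hrh2 and Hrh3. They were taken by symbol from the 31053 genes of a deposited table of single-nucleus RNA sequencing counts, and all 10 were found. The tissue was the mediobasal hypothalamus. Its nuclei came from wild-type animals fed chow without restriction and given insulin (2 libraries, called Insulin) or saline (2 libraries, called Saline), and were cleaned by fluorescence-activated sorting. All groups share genotype and diet, and the labels used here give no dose, route, time, sex, age or number of mice per library. It is therefore not known whether the 2 libraries of a group are single animals or pools. They differ in run and, by the sex-linked genes given below, in sex, so they do not come from the same animals. The spread behind each insulin p-value without a run block therefore holds the difference of run and sex. How much of the rest is technical is not known. Each of 2 sequencing runs held 1 Insulin and 1 Saline library; they are called run B, the higher-numbered in the deposited table, and run A.

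Dopamine is made from tyrosine by tyrosine hydroxylase (Th), the rate-limiting step, and by the aromatic amino acid decarboxylase Ddc, which also completes serotonin synthesis. Histamine is made from histidine by histidine decarboxylase (Hdc). Both amines are loaded into vesicles by the monoamine transporter Slc18a2, and dopamine is taken back into the neuron by Slc6a3. Arcuate dopamine neurons are known for restraining prolactin release from the pituitary, and histamine neurons of the tuberomammillary nucleus for promoting wakefulness. Drd1 couples to stimulatory and Drd2 to inhibitory G proteins, Hrh1 and Hrh2 mediate most actions of histamine on target cells, and Hrh3 is an inhibitory receptor that also sits on histamine neurons themselves.

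The 36523 annotated nuclei fell into 8 cell types and 37 neuron populations named by the authors. The Insulin libraries held 9796 nuclei with 63590421 UMIs (unique molecular identifiers, counts of single RNA molecules) in run B and 8352 nuclei with 66050156 UMIs in run A, and the Saline libraries 8902 nuclei with 71391593 UMIs in run B and 9473 nuclei with 69996918 UMIs in run A. Xist stood at 1713 and 1614 CPM (the usual unit of counts scaled to equal library size, here over all UMIs of the same nuclei) in run B and at 4.88 and 4.53 CPM in run A, while the Y-linked Uty stood at 1.02 and 1.40 CPM in run B and at 175 and 177 CPM in run A. Run and sex therefore cannot be told apart. The same barcode sequence occurred in more than 1 library for 534 sequences and 761 annotated nuclei, 479 of them in the group left unassigned. Nuclei annotated Endothelial carried the tanycyte genes Col23a1 (2423 CPM) and Rax (84.4 CPM), with Flt1 at 279 CPM but the endothelial genes Cldn5 and Pecam1 at only 1.69 and 3.87 CPM. Nuclei annotated Mural Cell carried endothelial Flt1 (1621 CPM), Cldn5 (538 CPM) and Pecam1 (195 CPM) beside the pericyte genes Rgs5 (598 CPM) and Pdgfrb (525 CPM). Nuclei annotated Micro carried the summed neuron markers at 544 and 1583 CPM in Insulin (run A, run B) and 1747 and 1798 CPM in Saline, beside microglia markers at 2352 and 1389 CPM in Insulin and 1049 and 1284 CPM in Saline, while neurons averaged 3016 CPM of neuron markers. These 3 groups are called here by their annotation only.

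Stretches upstream of the start sites of 4 members are shown because these genes mark the leading populations: Th, Slc18a2 and Slc6a3 in M31.Th, and Hdc with Slc18a2 in M2.Hdc. Each stretch has 124 bases, from 120 before to 4 after the start, in RefSeq windows on GRCm38.p6, written in the direction of transcription. They lie at chr7:142899992-142900115 (minus strand, Th), chr19:59260758-59260881 (plus strand, Slc18a2), chr13:73536627-73536750 (plus strand, Slc6a3) and chr2:126618675-126618798 (minus strand, Hdc). Capitals mark matches, on either strand, to the cyclic AMP response element TGACGTCA and to the GC box GGGCGG.
Th: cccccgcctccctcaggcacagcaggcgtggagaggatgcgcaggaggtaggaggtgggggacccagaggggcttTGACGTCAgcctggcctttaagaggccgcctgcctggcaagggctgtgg
Slc18a2: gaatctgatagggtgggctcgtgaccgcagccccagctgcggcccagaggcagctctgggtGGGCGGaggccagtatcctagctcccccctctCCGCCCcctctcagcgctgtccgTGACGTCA
Slc6a3: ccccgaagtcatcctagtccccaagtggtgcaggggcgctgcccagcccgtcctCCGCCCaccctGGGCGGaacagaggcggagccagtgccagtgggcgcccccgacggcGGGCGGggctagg
Hdc: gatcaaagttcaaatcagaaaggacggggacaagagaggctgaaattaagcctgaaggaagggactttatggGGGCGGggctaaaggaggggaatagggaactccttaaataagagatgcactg
Th and Slc18a2 each held the full response element, its first base 45 and 4 bases before the start. Over the whole 300-base windows, 1.79% of all 32851 windows held it, and 2 of the 16 member windows did. The GC box was in 35.7% of all windows and in 12 of the 16 member windows. A match is a description of these letters and not a measured site.

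Th (ENSMUSG00000000214, GENCODE on GRCm38, chromosome 7, 142892752 to 142931128, minus strand) had UMIs in few nuclei. Of its 1436 UMIs in annotated nuclei, 1353 (94.2%) lay in neurons, where its level was 6.18 ± 2.38 CPM (SD, n = 4 libraries). In the other 7 types it was at 3.23 CPM or less, from at most 21 UMIs each, and the ranges of neighbours in the order overlapped throughout. A Th UMI was found in 850 of 23261 neurons (3.65%, 95% exact Clopper-Pearson interval 3.42 to 3.90%), against 17 of 2921 oligodendrocytes (0.582%, 0.339 to 0.930%), which should lack it. Median depth was 8445 UMIs in neurons and 2354 UMIs in oligodendrocytes. Among nuclei with at least 2000 UMIs, each thinned to 2000 UMIs, the shares were 1.16% and 0.261%. Shallower nuclei were left out of this and every thinned share below. Intervals cover counting error only.

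Among neuron populations M31.Th led, with Th at 44.0 and 101 CPM in the Insulin libraries (run A, run B) and 30.1 and 92.3 CPM in the Saline libraries, a mean of 66.7 ± 34.9 CPM. M17.GABA followed at 31.3 ± 13.9 CPM and the vasopressin and oxytocin neurons M24.Avp/Oxt at 25.1 ± 18.2 CPM. The library ranges of these neighbours overlapped. The highest level was 20.8 times the median over the 35 populations with at least 10 nuclei in every library, which was 3.20 CPM. M31.Th nevertheless held only 18.7% of all neuronal Th UMIs, since M17.GABA, a population of 933 nuclei, held 16% and M20.GABA 10.6%. Th was thus spread over several populations beside the one named for it, and within M31.Th it was seen in 108 of 438 nuclei (24.7%, 20.7 to 29.0%).

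Ddc (ENSMUSG00000020182, chromosome 11, 11814101 to 11898144, minus strand) was highest outside neurons. Oligodendrocytes carried it at 143 ± 35.5 CPM and nuclei annotated Mural Cell at 99.4 ± 27.9 CPM. Neurons stood at 40.9 ± 3.79 CPM, below the range of both. Astrocytes and nuclei annotated Endothelial were lowest, at 6.59 ± 1.22 and 6.05 ± 1.35 CPM. In oligodendrocytes 676 of 2921 nuclei had a Ddc UMI (23.1%, 21.6 to 24.7%), and 20.3% did after thinning, against 7.08% of thinned neurons and 1.31% of thinned astrocytes.

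This reading of Ddc carries a limit of annotation. The antisense gene 1700042O10Rik overlaps Ddc over 17199 bases on the opposite strand, and the use of strand in the authors' counting is not given in the sources used here, so reads of both cannot be told apart. It stood at 164 ± 36.5 CPM in oligodendrocytes, 282.7 ± 31.3 CPM in M19.Ddc and 54.3 ± 3.47 CPM in neurons. Of the UMIs of both genes together, it held 53.4% in oligodendrocytes and 58.5% in M19.Ddc. In nuclei annotated Mural Cell its share was 35.1% and in astrocytes 24.1%. The antisense partners of Slc18a2 (Gm29261), Hrh2 (Gm16578) and Hrh3 (Gm17180) were far lower, at 0.12, 0.35 and 0.99 CPM in neurons.

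Among neurons M19.Ddc led with Ddc at 236 and 209 CPM in Insulin (run A, run B) and 212 and 162 CPM in Saline, clear of every other population in the ranges of its libraries. Next were M31.Th at 95.9 ± 13.1 CPM and M27.Trh at 83.2 ± 32.5 CPM, whose ranges overlapped. M13.Irx5, kept out of the order because 1 library held 9 of its nuclei, stood at 109 and 91.6 CPM in Insulin and 132 and 32.5 CPM in Saline. M19.Ddc neurons had Th in 46 of 815 nuclei (5.64%, 4.16 to 7.46%) and Slc6a3 in 13 (1.6%, 0.852 to 2.71%), while 566 (69.4%) had a Ddc UMI.

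Hdc (ENSMUSG00000027360, chromosome 2, 126593667 to 126619299, minus strand) was concentrated more than any other member in 1 population. The 101 nuclei of M2.Hdc held 1891 of the 2520 neuronal Hdc UMIs (75.0%), and 96 of the 101 had at least 1. Hdc stood there at 1313 and 1347 CPM in Insulin (run A, run B) and 905 and 1698 CPM in Saline. The last value rests on 2 nuclei, which is why M2.Hdc could not be tested. The other histamine neuron markers were present: Wif1 at 243 ± 73.6 CPM, Maob at 178 ± 61.3 CPM and Prph at 142 ± 26.3 CPM. Of 6 mast cell markers, another source of Hdc, 5 had no UMI and Kit had 3, a summed level of 0 to 2.37 CPM. Outside M2.Hdc the level was low: M9.Fezf1 had 11.3 ± 1.78 CPM, M17.GABA 6.43 ± 4.65 CPM and M12.Npffr1 5.40 ± 2.63 CPM.

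A second site of Hdc lay outside neurons. Nuclei annotated Ependymo carried the ciliary genes Ccdc153 (305 CPM) and Foxj1 (82.8 CPM). Their 4 ependymal-type markers, these included, summed to 694 CPM. Astrocyte markers summed to 1118 CPM there (3554 CPM in astrocytes), and oligodendrocyte markers to 443 CPM (9717 CPM in oligodendrocytes). Whether the group is mixed was not tested. Hdc stood in it at 57.9 and 75.9 CPM in Insulin and 43.8 and 31 CPM in Saline, above the range in neurons. These values come from 5, 55, 9 and 11 UMIs. A UMI was found in 63 of 274 such nuclei (23.0%, 18.1 to 28.4%), against 11 of 2921 oligodendrocytes (0.377%, 0.188 to 0.673%). After thinning the shares were 13.6% and 0.366%. Of the 6 mast cell markers, Cpa3, Mcpt4, Cma1, Ms4a2 and Tpsb2 had no UMI in these nuclei and Kit had 7, a summed level of 2.76 to 11.6 CPM over the 4 libraries.

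**Figure D1:**
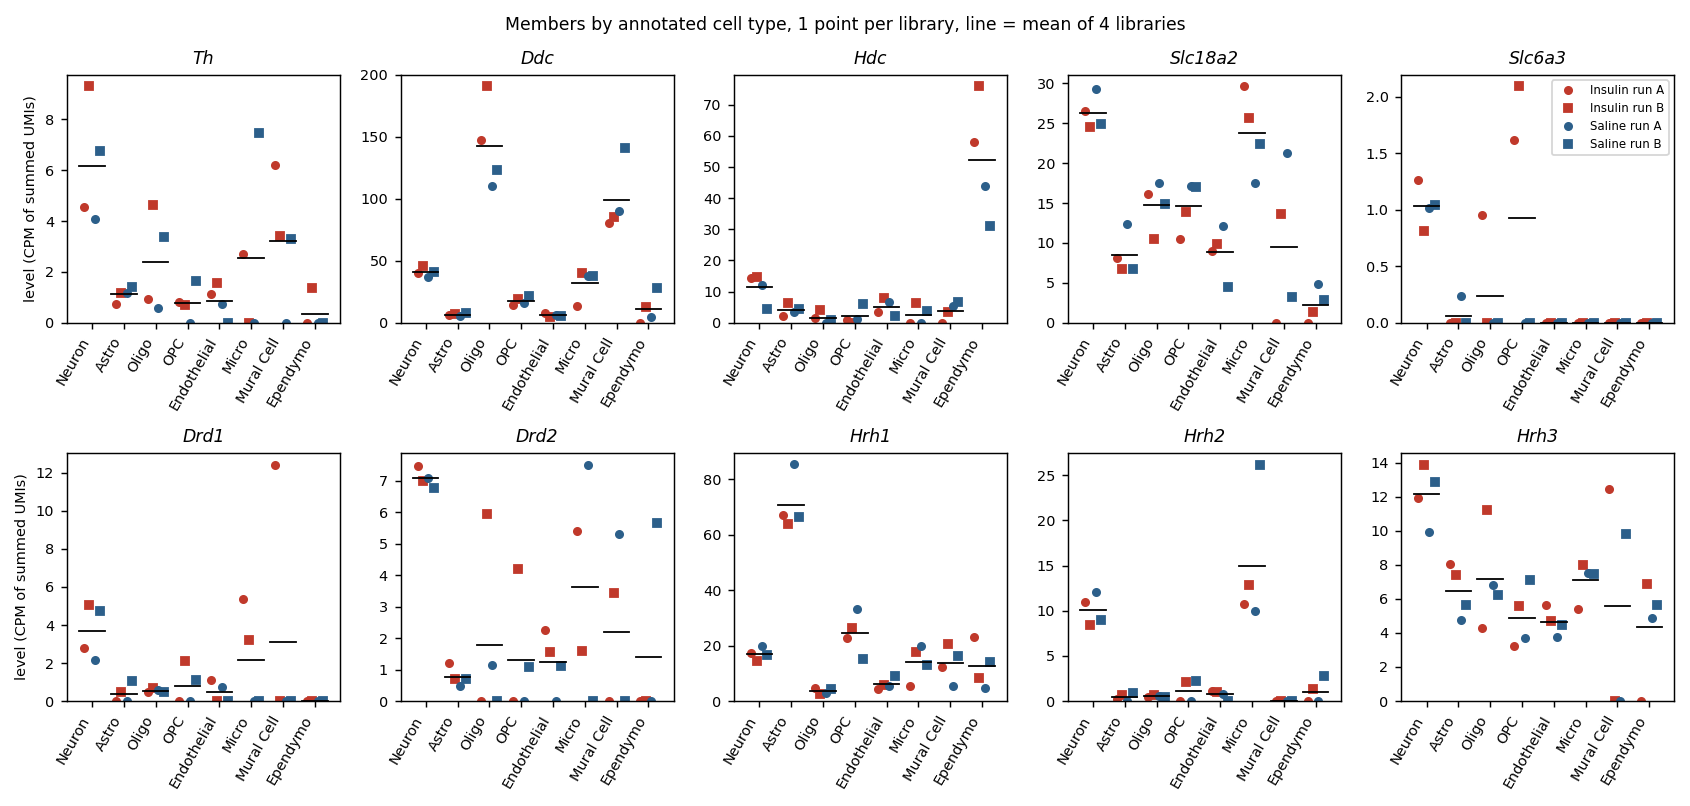
Level of each member (CPM of summed UMIs, vertical axis) in the 8 annotated cell types (horizontal axis), 1 point per library in red for Insulin and blue for Saline, circles for run A and squares for run B, lines for the mean of 4 libraries. Ddc was highest in oligodendrocytes (143 ± 35.5 CPM), Hdc in nuclei annotated Ependymo (52.2 ± 19.2 CPM) and Hrh1 in astrocytes (70.6 ± 9.97 CPM).

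Slc18a2 (ENSMUSG00000025094, chromosome 19, 59260896 to 59296012, plus strand) was shared by the dopamine and histamine populations. M2.Hdc carried it at 410 and 359 CPM in Insulin and 372 and 323 CPM in Saline. M31.Th carried it at 136 and 133 CPM in Insulin and 170 and 164 CPM in Saline, clear of the next population, M35.Pomc, at 52.9 ± 12.7 CPM. M20.GABA (47.4 ± 5.98 CPM) and M19.Ddc (45.9 ± 5.58 CPM) overlapped with M35.Pomc. By cell type, neurons (26.3 ± 2.15 CPM) and nuclei annotated Micro (23.8 ± 5.12 CPM, 46 UMIs) had overlapping ranges; the part of the neuron markers in that group was not tested, and 17.1% of neurons had a UMI.

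Slc6a3 (ENSMUSG00000021609, chromosome 13, 73536747 to 73578672, plus strand) had the steepest order over the tested populations. Of its neuronal UMIs, 141 (60.8%) were in M31.Th, where its level was 51.1 and 23.0 CPM in Insulin (run A, run B) and 47.9 and 33.7 CPM in Saline. M19.Ddc followed at 1.70 ± 1.19 CPM, and none of the other tested populations reached 10% of the level in M31.Th. M13.Irx5 had 36 UMIs, with 4.16 and 4.71 CPM in Insulin and 6.73 and 0.0 CPM in Saline. No UMI was found in M2.Hdc, in nuclei annotated Endothelial, Mural Cell, Ependymo or Micro. For M2.Hdc, 0 of 101 nuclei allows up to 3.59% with a UMI, which limits detection and not expression, since only 15.3% of M31.Th nuclei had one.

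In single M31.Th nuclei the pathway genes were often found together. Of the 108 nuclei with a Th UMI, 86 had Slc18a2 (79.6%, 70.8 to 86.8%), 68 had Ddc (63.0%, 53.1 to 72.1%) and 31 had Slc6a3 (28.7%, 20.4 to 38.2%). In the 330 nuclei without a Th UMI these shares were 49.4%, 31.8% and 10.9%. All 3 partners were present in 18.5% of nuclei with a Th UMI and in 4.85% of those without. After thinning to 2000 UMIs the shares of Slc18a2, Ddc and Slc6a3 were 32.7%, 30.6% and 8.16% with Th and 21.9%, 14.2% and 4.38% without, and all 3 partners were in 1 of 49 and 0 of 388 nuclei. The thinned intervals overlapped for Slc18a2 (19.9 to 47.5% with Th, 17.9 to 26.4% without) and for Slc6a3 (2.27 to 19.6%, 2.57 to 6.92%). Nuclei are not replicates of a condition, and these shares are descriptions.

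In M19.Ddc 40 of the 46 nuclei with a Th UMI had Ddc (87.0%), 27 had Slc18a2 (58.7%) and 9 had Slc6a3 (19.6%). With all UMIs, the shares in nuclei with a Th UMI were lower in a pair of other populations, without a test of the difference. In M24.Avp/Oxt 32 of 153 nuclei had a Th UMI, and 3 of the 32 had Ddc, 5 had Slc18a2 and 0 had Slc6a3. Of its 121 nuclei without Th, 3 had Ddc, 4 had Slc18a2 and 0 had Slc6a3. In M25.Ghrh, which holds neurons of growth hormone-releasing hormone, 36 nuclei had Th, 10 of them had Ddc (27.8%), 4 had Slc18a2 (11.1%) and 0 had Slc6a3. In its 217 nuclei without Th the shares were 27.6%, 13.8% and 0.461%. After thinning, 12 nuclei with Th remained in M24.Avp/Oxt and 10 in M25.Ghrh. Ddc was in 2 of the 12 and 0 of the 10, and Slc18a2 and Slc6a3 were in 0 of them, as in M19.Ddc. Among all 850 neurons with a Th UMI, 413 (48.6%, 45.2 to 52.0%) had none of the 3 partners, against 67.0% of neurons without one. Among the 119 neurons with at least 3 Th UMIs, 28 had none (23.5%, 16.2 to 32.2%). After thinning the shares with none were 78.0% with Th and 89.0% without. The share thus depends on depth and on the minimum of Th UMIs. In M2.Hdc, 95 of the 96 nuclei with an Hdc UMI also had Slc18a2 (99.0%, 94.3 to 99.97%), 20 had Ddc and 0 had Th.

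**Figure D2:**
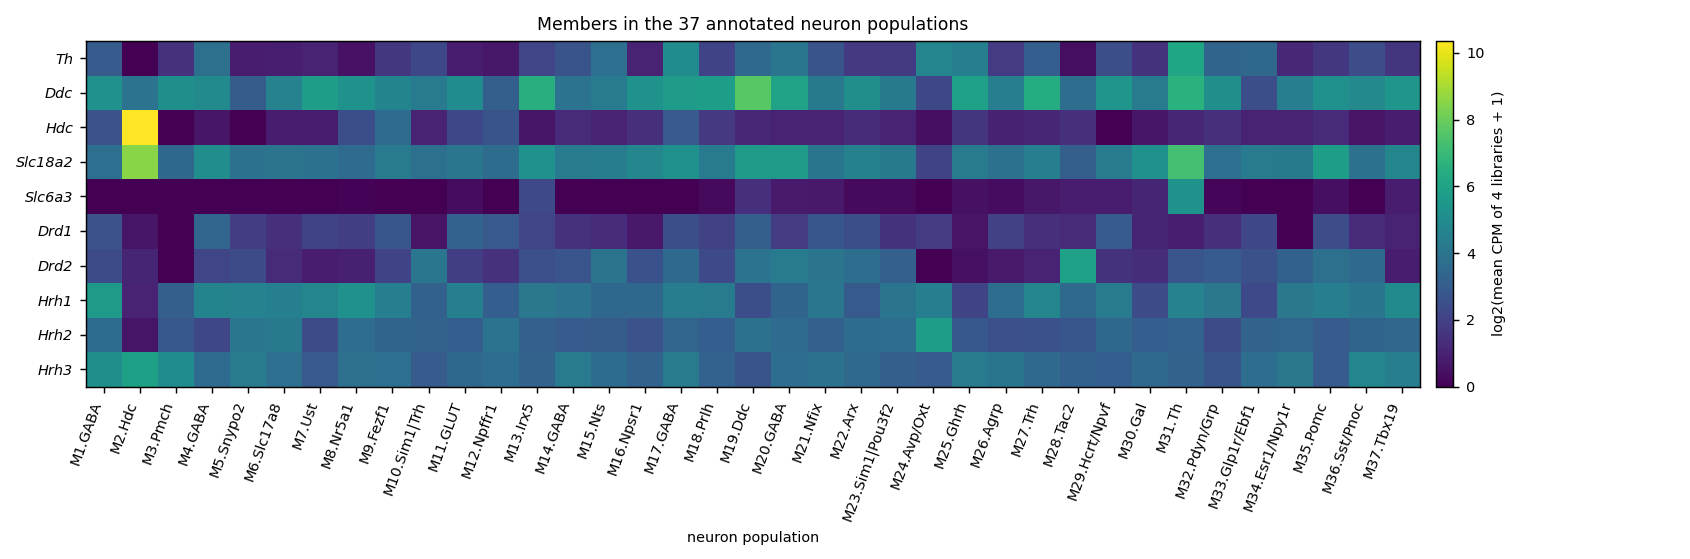
Level of each member (rows) in the 37 annotated neuron populations (columns), as the log2 of the mean CPM of 4 libraries plus 1 (colour scale). The scale compares populations within a gene and not genes with each other. Hdc is brightest in M2.Hdc and Slc6a3 in M31.Th, while Hrh1 and Hrh3 are spread over most populations. The second-highest Slc6a3 level among tested populations was 1.70 ± 1.19 CPM.

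Most UMIs of the dopamine receptors lay in neurons. Drd1 (ENSMUSG00000021478, chromosome 13, 54051183 to 54055705, minus strand) stood at 3.68 ± 1.43 CPM in neurons, which held 808 of 856 UMIs, and Drd2 (ENSMUSG00000032259, chromosome 9, 49340627 to 49408177, plus strand) at 7.08 ± 0.293 CPM, with 1583 of 1667 UMIs in neurons. No other cell type had more than 14 UMIs of either. Drd1 had no single leading population: M4.GABA (9.52 ± 6.88 CPM, 23 UMIs), M11.GLUT (8.58 ± 1.65 CPM) and M19.Ddc (7.81 ± 4.45 CPM) overlapped, and the highest level was 3.72 times the median over the 35 populations.

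Drd2 had 1 clear leader. M28.Tac2, the population named for the tachykinin gene Tac2, carried it at 80.8 and 44.6 CPM in Insulin (run A, run B) and 84.8 and 27.7 CPM in Saline. M20.GABA at 18.5 ± 3.73 CPM and M10.Sim1|Trh at 16 ± 5.85 CPM came next, below the lowest library of M28.Tac2. In M28.Tac2 84 of 259 nuclei had a Drd2 UMI (32.4%, 26.8 to 38.5%). M31.Th itself had Drd2, known as an autoreceptor of dopamine neurons, in 18 of 438 nuclei (4.11%, 2.45 to 6.42%), an interval that holds the 5.06% of all neurons.

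Hrh1 (ENSMUSG00000053004, chromosome 6, 114397936 to 114483296, plus strand) was highest in astrocytes. Astrocytes had 67.0 and 63.7 CPM in Insulin (run A, run B) and 85.4 and 66.2 CPM in Saline, clear of oligodendrocyte precursor cells at 24.4 ± 7.42 CPM and neurons at 17.1 ± 2.29 CPM. A UMI was present in 19.8% of astrocytes (18.7 to 20.9%) at a median depth of 3148 UMIs, against 12.7% of neurons at 8445 UMIs. After thinning the shares were 12.8% and 3.18%. Oligodendrocytes were lowest at 3.64 ± 1.06 CPM. Among neurons M8.Nr5a1, named for the marker of the ventromedial nucleus, carried 36.5 ± 4.01 CPM and 21.7% of the neuronal UMIs. M1.GABA ranked above it at 46.4 ± 59.0 CPM, but from 10 UMIs, and M37.Tbx19 overlapped with it at 28.8 ± 11.4 CPM.

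Hrh2 (ENSMUSG00000034987, chromosome 13, 54192129 to 54236180, plus strand) stood at 14.9 ± 7.58 CPM (30 UMIs) in nuclei annotated Micro and 10.1 ± 1.71 CPM in neurons, with overlapping ranges. The part of the neuron markers in nuclei annotated Micro was not tested. Every other type was at 1.07 CPM or less, below the range of neurons. M24.Avp/Oxt led, at 57.9 and 36.3 CPM in Insulin (run A, run B) and 74.0 and 45.5 CPM in Saline, all 4 libraries above those of the next population, M6.Slc17a8 (17.4 ± 8.56 CPM). In M24.Avp/Oxt 59 of 153 nuclei had a UMI (38.6%, 30.8 to 46.8%).

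Hrh3 (ENSMUSG00000039059, chromosome 2, 180099465 to 180104488, minus strand) was spread over all populations. Neurons stood at 12.1 ± 1.69 CPM and the other types between 4.35 and 7.14 CPM, and all 35 populations exceeded 10% of the highest level. The highest was M1.GABA at 34.5 ± 25.3 CPM from 8 UMIs, then M3.Pmch, the melanin-concentrating hormone neurons, at 32.0 ± 8.09 CPM and M36.Sst/Pnoc at 26 ± 7.53 CPM, all overlapping. The untested M2.Hdc was higher, with 53.9 and 59.4 CPM in Insulin and 41.95 and 80.8 CPM in Saline, and 51 of its 101 nuclei had a UMI. Drd1, Drd2, Hrh1 and Hrh2 had 1 to 3 UMIs each in M2.Hdc.

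Genes most like a member across the 35 populations were named by Pearson's r of log2(CPM + 1). For Ddc the first was its antisense partner 1700042O10Rik (r = 0.98), then Greb1l (0.63) and the member Slc18a2 (0.60). For Slc6a3 they were Gm4847 (0.92), Sln (0.89) and a, the agouti gene (0.81), each highest in M31.Th. Slc18a2 was closest to Gm26954 (0.72), Pclo (0.67) and Slc6a3 (0.67). Th had no close match, with Ntrk2 (0.65), Cd276 (0.63) and Maml3 (0.63). Drd2 was closest to Kcnc1 (0.73), and Hrh1 to Wdr90 (0.74). Populations share the same 4 libraries, so these values carry no p. Th and Hdc had r = -0.05 over these 35 populations, where Hdc was at most 11.3 CPM. M2.Hdc, which held 75.0% of the neuronal Hdc UMIs and 0 Th UMIs, is not among them.

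With insulin, none of the 10 genes passed the test at this depth. In neurons Th was at 4.57 and 9.30 CPM in Insulin (run A, run B) and 4.09 and 6.74 CPM in Saline. The 2 runs differed more than the 2 treatments, and the groups overlapped. The log2 difference was 0.35 (SE 0.42). Hdc was at 14.3 and 14.7 CPM in Insulin and 12 and 4.34 CPM in Saline, with a log2 difference of 0.81 (SE 0.50), and it was the only member whose Insulin libraries both lay above both Saline libraries. The other 8 lay between -0.21 (Hrh1, SE 0.20) and 0.18 (Drd1, SE 0.48, and Hrh3, SE 0.19), with Ddc at 0.14 (SE 0.12), Slc18a2 at -0.09 (SE 0.16), Slc6a3 at 0.02 (SE 0.37), Drd2 at 0.06 (SE 0.19) and Hrh2 at -0.12 (SE 0.26). The adjusted p was 1.00 for each (edgeR's quasi-likelihood test, adjusted by Benjamini and Hochberg's method over every gene tested). No member had an unadjusted p under 0.05, and DESeq2 called 0 as well. Within both runs Insulin was above Saline for Th, Ddc, Hdc, Drd1, Drd2 and Hrh3, and below it for Slc18a2, Hrh1 and Hrh2. Slc6a3 was above in run A and below in run B. The share of all genes with 1 direction in both runs was not counted. With the run as block, 0 members were called, as were 0.0% of all 20275 genes in neurons.

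The background was as empty: 0.0% of 20275 genes in neurons and 0.0% of 21190 genes in all nuclei were called. The median log2 difference of the 10 members in neurons was 0.10, against 0.00 over all genes, and their median size was 0.16, against 0.14. In neurons 8.74% of all genes had both Insulin libraries above both Saline libraries and 11.6% had both below, against 1 and 0 of the members. With 2 libraries a group, the smallest p of an exact two-sided permutation test is 0.333.

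Neuronal Hdc came mostly from M2.Hdc, whose number of nuclei differed between libraries. M2.Hdc numbered 34 and 29 nuclei in Insulin (run A, run B) and 36 and 2 in Saline. Without M2.Hdc, Hdc in neurons was at 2.69 and 3.51 CPM in Insulin and 2.04 and 3.22 CPM in Saline, a log2 difference of 0.20, and with the makeup of populations held fixed it was 0.12, a value that still uses the Saline library with 2 M2.Hdc nuclei. Their part in the difference was not tested. Fewer nuclei of a type and less RNA per nucleus cannot be told apart in summed counts. Within M2.Hdc the Insulin libraries (1313 and 1347 CPM) lay between the Saline libraries (905 and 1698 CPM).

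Outside neurons 16 tests of members were possible in 7 other types, and 0 were called, against a background of 0.0%. Ddc in oligodendrocytes was at 147 and 191 CPM in Insulin (run A, run B) and 110.0 and 123 CPM in Saline. Both Insulin libraries were higher, with a log2 difference of 0.54 (SE 0.21), an unadjusted p of 0.0319 and an edgeR adjusted p of 1.00. Hdc in nuclei annotated Ependymo had a log2 difference of 0.94 (SE 0.46, edgeR adjusted p = 1.00). Of the 16 tests, 4 (25%) had both Insulin libraries above and 2 (12.5%) both below, against 15.6% and 13.3% of all tests in these types. The difference in insulin effect between another type and neurons could be tested for a member with UMIs in that type, in 64 cases over the 7 types. By edgeR's interaction test 0 passed, against 0.0323% of all such tests, and 2 had an unadjusted p under 0.05.

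Across 35 populations 160 tests of members were possible, and 0 were called, where 0.000835% of 359137 tests over all genes were. At an unadjusted p under 0.05 there were 5, and DESeq2 called 0. Both Insulin libraries were above both Saline libraries in 27 tests (16.9%) and below in 22 (13.8%), against 14.2% and 13.8% of all tests. Th was above in 4 of 9 populations and below in 0, and Hrh3 above in 8 of 23 and below in 2. Slc18a2 was above in 2 of 28 populations and below in 8, and Hrh1 above in 1 of 27 and below in 5. These counts share the same 4 libraries, so populations are not independent.

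Th in M24.Avp/Oxt, at 30.3 and 48.4 CPM in Insulin (run A, run B) and 8.22 and 13.3 CPM in Saline, had the lowest unadjusted p of the 160 (0.0192; log2 1.65, SE 0.63, edgeR adjusted p = 0.999). It came from 22, 12, 2 and 7 UMIs. In M31.Th, where Th is highest, the log2 difference was 0.18 (SE 0.49), and the runs were further apart than the treatments. Slc18a2 in M31.Th was at 136 and 133 CPM, against 170 and 164 CPM in Saline. The groups did not overlap, but the difference did not pass (log2 -0.33, SE 0.18, edgeR adjusted p = 0.999). Ddc in M19.Ddc had a log2 difference of 0.21 (SE 0.20), and Drd2 in M28.Tac2 one of -0.01.

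**Figure D3:**
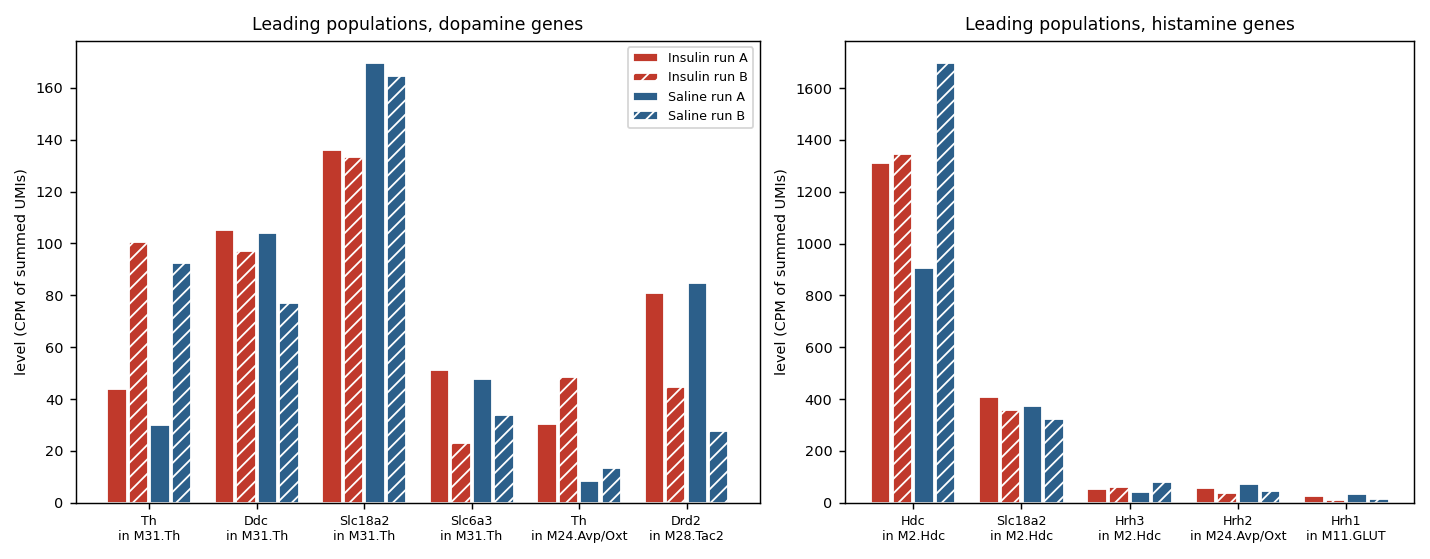
Level (CPM of summed UMIs, bars from 0) of members in the populations that lead them, Insulin in red left of Saline in blue, run B hatched and run A plain. Th in M31.Th is higher in both run B libraries (101 and 92.3 CPM) than in both run A libraries (44.0 and 30.1 CPM), and Hdc in M2.Hdc for Saline run B (1698 CPM) comes from 2 nuclei.

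Between the runs, which differ in sex, 2 of the 160 population tests of members were called, against 1.51% of all 359137 tests. The count by itself does not set the members apart. Th in M31.Th was at 101 (Insulin) and 92.3 CPM (Saline) in run B and at 44.0 (Insulin) and 30.1 CPM (Saline) in run A. The 2 runs did not overlap, and the log2 difference was 1.29 (SE 0.24, edgeR adjusted p = 0.0154). It did not pass by DESeq2 (log2 1.30, adjusted p = 0.138). It passed whichever 1 library was left out, where the run with 1 library is assumed to vary like the other. Nuclei of M31.Th with a Th UMI were 35 of 120 (Insulin) and 35 of 113 (Saline) in run B, and 26 of 117 (Insulin) and 12 of 88 (Saline) in run A. The 5 nuclei with most Th UMIs held 32.6% and 32.3% of the UMIs in the run B libraries and 39.5% and 63.6% in those of run A.

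The other dopamine genes of M31.Th did not pass between runs. Ddc in M31.Th was at 97.3 (Insulin) and 76.9 CPM (Saline) in run B and 105 (Insulin) and 104 CPM (Saline) in run A. Slc18a2 was at 133 and 164 CPM in run B and 136 and 170 CPM in run A. Slc6a3 stood at 23.0 and 33.7 CPM in run B and 51.1 and 47.9 CPM in run A, with a log2 difference of -0.86 that did not pass (SE 0.29, edgeR adjusted p = 0.219). Thus in the sums over M31.Th nuclei, Th was higher and Slc6a3 had lower values in the run B libraries. The difference between the 2 genes was not tested, and the values do not describe single nuclei.

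Hrh1 in M11.GLUT was lower in run B, at 10.2 (Insulin) and 15.6 CPM (Saline), against 26.6 (Insulin) and 33.0 CPM (Saline) in run A. The log2 difference was -1.28 (SE 0.27, edgeR adjusted p = 0.0206). It did not pass by DESeq2 (adjusted p = 0.0631) or without the Insulin library of run B (adjusted p = 0.196). Drd2 in M28.Tac2 had 44.6 (Insulin) and 27.7 CPM (Saline) in run B and 80.8 (Insulin) and 84.8 CPM (Saline) in run A, which just missed the threshold (log2 -1.09, SE 0.31, edgeR adjusted p = 0.0572).

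In populations 2 of the 160 tests (Th in M31.Th, Hrh1 in M11.GLUT) were called between runs, against 1.51% of all tests. Both run B libraries were above both run A libraries in 38 of the 160 (23.8%) and below in 30 (18.8%), against 27.7% and 17.7% of all tests. Together the members lay near the shares of all tests, and single members went either way. Th was above in 4 of 9 populations and below in 0, Drd1 above in 4 of 7 and below in 0, Ddc above in 14 of 29 and below in 2, and Hrh3 above in 6 of 23 and below in 0. Hrh1 was above in 0 of 27 and below in 9, and Hrh2 above in 1 of 16 and below in 8. Slc18a2 was mixed, above in 6 of 28 and below in 7. All populations share the same libraries, so the counts of a gene are not independent. No test compared the members.

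In neurons as a whole Drd1 was at 5.05 (Insulin) and 4.74 CPM (Saline) in run B and 2.77 (Insulin) and 2.15 CPM (Saline) in run A. Its log2 difference of 0.94 (SE 0.22, edgeR adjusted p = 0.120) and that of Th, 0.83 (SE 0.21, edgeR adjusted p = 0.135), did not pass. Both passed with treatment as a block (edgeR adjusted p = 0.0257 and 0.0274) and by DESeq2 (adjusted p = 0.0171 and 0.0211), where 10.8% of all genes with the block and 6.81% of those given an adjusted p by DESeq2 passed too. Hrh2 had a log2 difference of -0.47 (SE 0.15, edgeR adjusted p = 0.163). Thus 0 of 10 members were called in neurons, where 1.0% of all genes were, and 0 of 10 in all nuclei, where 1.49% were. At an unadjusted p under 0.05 there were 3 in each, Th, Drd1 and Hrh2. In neurons 4 members had both run B libraries above and 4 both below, against 38.3% and 22.9% of all genes.

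**Figure D4:**
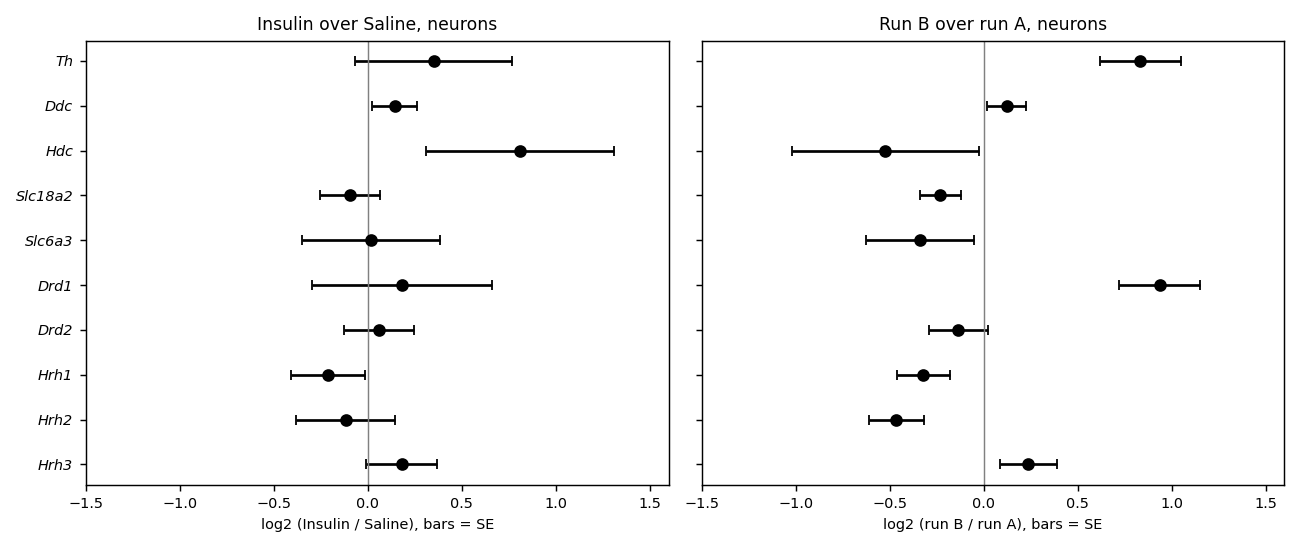
Difference of each member in neurons on the log2 scale (points, with bars for the SE), Insulin over Saline on the left and run B over run A on the right. For insulin Hdc lies furthest from 0, at 0.81 (SE 0.50), and for the runs Drd1 (0.94, SE 0.22) and Th (0.83, SE 0.21) lie furthest above 0.

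**Figure D5:**
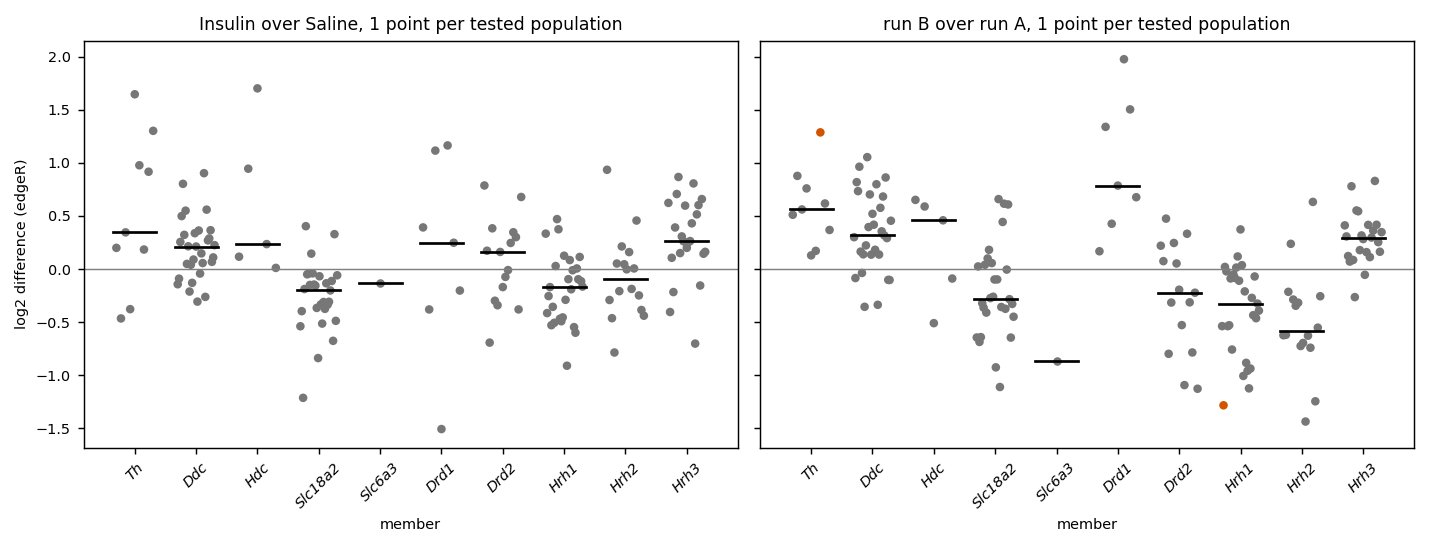
Difference of each member in every population where it was tested, on the log2 scale, Insulin over Saline on the left and run B over run A on the right, 1 point per population and a line at the median, with orange points for an edgeR adjusted p below the threshold. There are 0 orange points for insulin and 2 for the runs, Th in M31.Th at 1.29 and Hrh1 in M11.GLUT at -1.28.

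A list of 35 other genes of the pathways gave the same picture for insulin. It held the genes of the Th cofactor tetrahydrobiopterin, further catecholamine synthesis, amine breakdown, other transporters and receptors, signalling after dopamine receptors, midbrain dopamine factors and serotonin. With insulin, edgeR called 0 of 29 tested genes in all nuclei and 0 of 28 in neurons, against 0.0% of all genes in each. It called 0 of 76 tests in other types (0.0% of all tests) and 0 of 377 in populations (0.000835% of all tests). Between runs in all nuclei 1 of 29 rose and 1 fell, against 1.49% of all genes, and 0 of 28 passed in neurons (1.0% of all genes), 0 of 377 tests in populations (1.51% of all tests) and 0 of 76 in other types (1.45% of all tests). Hrh4, another histamine receptor, had 23 (Insulin) and 24 (Saline) UMIs in run B and 1 and 2 UMIs in run A (log2 3.83, edgeR adjusted p = 0.0314). Tph1, a tryptophan hydroxylase of serotonin and melatonin synthesis, had 4 and 5 UMIs in run B and 81 and 86 UMIs in run A (log2 -4.21, edgeR adjusted p = 0.00602). Of the Tph1 UMIs 60.2% lay in unassigned nuclei. Without nuclei that share a barcode sequence Tph1 had 4 and 5 UMIs in run B and 26 and 35 in run A and did not pass (edgeR adjusted p = 0.0630), while Hrh4 did (0.0493).

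The list also described the leading populations. In M2.Hdc its highest genes included the monoamine oxidases Maob (178 ± 61.3 CPM) and Maoa (159 ± 45.7 CPM), which degrade amines. In M31.Th they included Rgs9 (122 ± 20.5 CPM), a brake on G protein signalling, and the G protein subunit Gnal (87.8 ± 15.6 CPM). In M19.Ddc they included Gnal (142 ± 8.47 CPM) and Rgs9 (72.4 ± 3.76 CPM).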

How the data were processed

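Per the submitters' processing notes, the authors made the deposited counts with Cell Ranger on GRCm38, without a version; the gene annotation, strand setting and doublet treatment beyond a deposited doublet label are not given in the sources used here. The deposited matrix holds raw UMI counts of 41156 barcodes with at least 500 UMIs, and a deposited table gives library, run, treatment, cell type and population; 11 of its nuclei had no barcode in the matrix, 423 nuclei labelled doublets and 1116 unassigned entered only the sums over all nuclei, and 4633 barcodes have no annotation. That table names libraries by treatment and run (run 230, called run A, and run 232, called run B), not by the titles of the labels. UMIs were summed per library for all nuclei, each cell type and each population with at least 10 nuclei per library (35 of 37). Each sum was fitted over all genes with edgeR 4.0.16 in R 4.3.3 (TMM, filterByExpr with minimum count 10 and minimum total 15, quasi-likelihood test, 2 residual degrees of freedom, Benjamini-Hochberg, threshold 0.05). DESeq2 1.42.0, RLE factors, no filter, each library left out, a run block (1 residual degree of freedom), fixed makeup, thinning to 2000 UMIs and, added after seeing the data, nuclei with shared barcodes left out and neurons without M2.Hdc were alternatives. The fits were tested on simulated data. Thinned shares cover only nuclei with at least 2000 UMIs. CPM use all UMIs of the same nuclei as the library size; levels across types and populations, which the authors clustered on these nuclei, carry no test, and neighbours in an order are compared by whether their 4 libraries overlap. Deviations from the group means correlated between the 2 libraries of a run (r = 0.694 over 21190 genes in all nuclei, 0.718 over 20275 in neurons; genes are not replicates), so the run may serve as a block; each pair comes from the deposited run column. The members and the lists were chosen with earlier results of these data known. Named genes are the 10 members, the 3 genes most like each (at least 5 CPM in a population; pseudocount 1) of which some are given, and pathway genes that passed a test or were among the 3 highest in M2.Hdc, M31.Th or M19.Ddc, except for a result not reported here. Sequences are RefSeq windows on GRCm38.p6 and loci are GENCODE on GRCm38; all 10 members matched by symbol.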

Additional observations from a re-analysis of the deposited data

Results flagged for a closer look

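UMIs of all 10 genes were found in data that the comparisons did not use, the 4633 barcodes without annotation: 178 of Th, 1704 of Ddc, 277 of Hdc, 908 of Slc18a2, 44 of Slc6a3, 113 of Drd1, 240 of Drd2, 787 of Hrh1, 295 of Hrh2 and 416 of Hrh3. Each exceeds the 3 UMIs that a count of 0 allows. Their levels there were 4.79 CPM for Th, 45.9 CPM for Ddc, 7.46 CPM for Hdc and 24.4 CPM for Slc18a2. In all annotated nuclei the means were 5.33, 40.3, 10.4 and 23.9 CPM.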

How the results depend on the processing

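With insulin the count of members called stayed at 0 in all nuclei, neurons, other types and populations under RLE factors, no filter and DESeq2. It was also 0 in each with the run as replicate block. The same held for populations with at least 20 nuclei per library, and for all nuclei and neurons without shared barcodes. Under RLE factors, no filter, DESeq2 and the block, 0.0% of all genes were called in all nuclei and in neurons. In populations the shares of all tests were 0.000835%, 0.0274%, 0.00139% and 0.13%, in that order. In other types they were 0.0%, 0.103%, 0.0% and 0.0953%. Between runs, DESeq2 called 2 members in all nuclei (6.63% of all genes given an adjusted p), 2 in neurons (6.81%) and 0 in populations (0.729%). Treatment as a block called 2 in neurons (10.8% of all genes) and 6 in populations (3.81%), and no filter 8 in populations (2.22%). Fits that leave out 1 library keep only 1 library in a run, so their counts allow no conclusion about the members. Their highest counts came from the fit without Insulin run A. That fit also called the largest share of all genes in all nuclei, in neurons and in populations. Leaving out 1 library gave 0 to 4 in all nuclei, 0 to 5 in neurons and 1 to 13 in populations (13 without Insulin run A, where 8.88% of all tests passed, 1 without Insulin run B, 4 without either Saline library); the cause was not tested. Without Insulin run B, Hdc passed in neurons (log2 -1.66, edgeR adjusted p = 0.00157), where run B is then the 1 Saline library with 2 M2.Hdc nuclei, assumed to vary like the others.

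Of the alternatives for single insulin differences 207 kept their sign and 30 turned it, none of a called value. Slc6a3 turned to -0.023 in all nuclei with fixed makeup, and in neurons to -0.074 with fixed makeup and -0.0062 with the run as block. Drd2 in M28.Tac2 turned to 0.079 by DESeq2 and to 0.18 with the run as block. Leaving out 1 library, log2 values in all nuclei ran from -0.21 to 0.67 for Th, -0.28 to 0.075 for Slc18a2, -0.28 to 0.39 for Slc6a3, -0.24 to 0.79 for Drd1, -0.016 to 0.17 for Drd2 and -0.39 to 0.14 for Hrh2. In neurons they ran from -0.22 to 0.76 for Th, -0.23 to 0.068 for Slc18a2, -0.36 to 0.32 for Slc6a3, -0.28 to 0.82 for Drd1, -0.017 to 0.13 for Drd2 and -0.36 to 0.16 for Hrh2. In M31.Th the range was -0.50 to 1.16 for Th and -0.85 to 0.33 for Slc6a3, in M19.Ddc -0.024 to 0.48 for Ddc and in M28.Tac2 -0.51 to 1.12 for Drd2. Leading levels kept within the spread in 19 of 20 cases; Hdc in M9.Fezf1 was 13.9 CPM with nuclei weighted equally.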
